A study of Homo sapiens with 9 samples.

Results

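Non-muscle myosin II is the motor that pulls on actin filaments in almost all animal cells. Each motor holds heavy chains, which carry the ATPase head and the tail that packs into filaments, together with essential and regulatory light chains that clamp the neck. Phosphorylation of the regulatory light chain, by myosin light chain kinase after calcium binds calmodulin or by the kinases ROCK1 and ROCK2, which small GTPases such as RHOA activate, turns the motor on, and a phosphatase turns it off. The set described here held 10 genes by name: the heavy chains MYH9, MYH10 and MYH14, the light chains MYL6, MYL9, MYL12A and MYL12B, and the kinases MYLK, ROCK1 and ROCK2. All 10 were among the 60664 genes listed in the deposited counts, and all 10 passed the filter on low counts that left 18264 genes for testing.

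RNA was sequenced from MDA-MB-231, a mesenchymal-like human breast cancer cell line without oestrogen receptor, progesterone receptor or ERBB2 amplification. The 3 groups of 3 samples each were taken after 6 days in medium of set viscosity: scramble control cells at 0.77 cP (SC 0.77 cP), scramble control cells at 8 cP (SC 8 cP), and cells with a hairpin against the calcium channel TRPV4 at 8 cP (shTRPV4 8 cP). All 9 samples carried a lentiviral hairpin with puromycin selection, the higher viscosity was set with methylcellulose, and TRPV4 knockdown rests on a stable pool made with 1 hairpin. Knockdown cells at 0.77 cP were not analysed here, so both contrasts that hold shTRPV4 cells against a control leave the effect of viscosity within them unmeasured, and both 8 cP contrasts share the SC 8 cP samples. The replicates are separate samples in the labels; nothing says whether they came from separate cultures, so the p-values measure the spread between these samples.

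Total counts per sample ran from 64571681 to 103518036, and no pair of replicates within a group was as alike as counting noise alone would make it. TRPV4 itself, the target of the hairpin, had 40, 28 and 54 counts in SC 0.77 cP, 64, 45 and 24 in SC 8 cP, and 7, 1 and 13 in shTRPV4 8 cP. Its level in the knockdown was lower than in SC 8 cP by 2.51 on the log2 scale (SE 0.49, edgeR adjusted p = 0.00219), with no overlap between those groups. The mesenchymal marker list (VIM, CD44, FN1, ZEB1, CAV1, AXL) summed to 4722 to 5490 CPM (counts scaled to a common library size) and leukocyte markers to at most 0.661 CPM. Summed over each list, the mesenchymal markers were lower in all shTRPV4 samples (4722 to 4913 CPM) than in all SC 8 cP samples (5280 to 5389 CPM), the 4 endothelial markers, 3 of which passed the filter, were also lower there (3.87 to 4.75 against 6.55 to 6.91 CPM), and the 6 epithelial markers were lower at 8 cP (2344 to 2558 CPM in SC) than at 0.77 cP (2923 to 3251 CPM). Within the mesenchymal sum, CD44 (882 against 842 CPM) and CAV1 (1192 against 1129.7 CPM) had higher means in shTRPV4 8 cP than in SC 8 cP, and neither passed. Within the epithelial sum, the keratins KRT7, KRT8, KRT18 and KRT19 were lower in SC 8 cP than in SC 0.77 cP. EPCAM overlapped between these groups (17.5 to 19.4 against 18.8 to 19.1 CPM, edgeR adjusted p = 0.517). CDH1 had at most 12 counts and did not pass the filter. Smooth muscle markers, which matter for MYLK and MYL9, summed to 79.1 to 96.8 CPM with overlapping ranges in the 3 groups. Nearly all of this sum was SMTN (77.7 to 94.7 CPM). ACTA2 reached 1.61 CPM at most and MYH11 0.382, and 3 of the 6 markers passed the filter. The part of these markers in the results below was not tested.

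Gene models place MYH9 at chr22:36281280-36388010, MYH10 at chr17:8474207-8631376 and MYH14 at chr19:50188186-50310542 on GRCh38. The light chains lie at chr12:56158346-56163496 (MYL6), chr20:36541497-36551447 (MYL9), chr18:3247481-3256236 (MYL12A) and chr18:3261479-3278461 (MYL12B). MYL12A and MYL12B are neighbours on the same strand. MYLK covers chr3:123610049-123884332, ROCK1 chr18:20944612-21111813 and ROCK2 chr2:11179759-11348330.

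The coding stretch around the activating phosphorylation site of the 3 regulatory light chain genes is shown because MYLK and the ROCKs act on it and because it lets a reader see how far reads can tell the genes apart. Each line is 60 bases of the canonical transcript (GENCODE release 44), all in exon 2, with the neighbouring threonine and serine codons of the site in capitals.
MYL9 (chr20:36544912-36544971, plus strand): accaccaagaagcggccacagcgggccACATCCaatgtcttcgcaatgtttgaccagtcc
MYL12A (chr18:3253272-3253331, plus strand): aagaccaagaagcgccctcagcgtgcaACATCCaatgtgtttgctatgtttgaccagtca
MYL12B (chr18:3272926-3272985, plus strand): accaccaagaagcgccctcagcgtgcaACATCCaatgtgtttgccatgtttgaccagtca
The codons in capitals were the same bases in all 3 genes. Over these 60 bases MYL12A and MYL12B differed at 3 positions, MYL9 and MYL12B at 8, and MYL9 and MYL12A at 10. The longest run of identical coding bases was 77 between MYL12A and MYL12B and at most 26 between MYL9 and either of them, against a read length of 100.

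The heavy chain genes MYH9 and MYH10 differed at more positions in a stretch of the same size. Their longest run of identical coding bases was 31, above the 26 between MYL9 and MYL12A. The next lines give the stretch that codes for the ATP-binding loop of the motor head, in MYH9 and MYH10, where it spans the junction of exons 4 and 5. They are shown because these genes held nearly all heavy chain counts. Capitals mark the bases that differ between them.
MYH9 (chr22:36326619-36327477, minus strand): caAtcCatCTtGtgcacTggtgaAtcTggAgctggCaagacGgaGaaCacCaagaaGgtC
MYH10 (chr17:8577296-8589097, minus strand): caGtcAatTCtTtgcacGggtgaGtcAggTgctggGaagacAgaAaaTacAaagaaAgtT
MYH9 and MYH10 differed at 16 of the 60 bases even here, and no stretch of 75 bases in any annotated transcript was shared between MYH9, MYH10 and MYH14. Among the members, the share of 75-base stretches also found in another gene was highest for MYL6 (11.2%, nearly all with SMARCC2 on the other strand), then ROCK1 (6.96%, nearly all with the pseudogene ROCK1P1), MYH14 (2.97%), MYLK (2.06%) and MYL12A (1.38%), and it was 0 for MYL9 and ROCK2. ROCK1P1 had 21 to 70 counts per sample and MYLK-AS1, antisense to MYLK, 48 to 86, against 5767 or more for ROCK1 and 3994 or more for MYLK. SMARCC2 had 74.8 to 85.7 CPM and differed by at most 0.0062 on the log2 scale in any comparison.

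Levels between genes were compared per kilobase of the canonical transcript. MYL6, the essential light chain, was highest in SC 0.77 cP at 1059 CPM per kb, followed by MYL12B at 431, MYH9 at 262 and MYL12A at 250.4. MYL9 had 52.8 CPM per kb, MYH10 12.8, ROCK2 10.6, ROCK1 9.69, MYLK 6.28 and MYH14 0.0205. MYH9 and MYL12A stood within their spread of each other in SC 0.77 cP. By mean CPM with no length, MYH9 was the 27th highest of 18227 tested genes with a length, which places the heavy chain of myosin IIA in the top 0.148%. Per kilobase of the canonical transcript it was the 253rd (top 1.39%), behind MYL6 at the 68th and MYL12B at the 154th place, and per kilobase of union exon length the 317th. The order depends on the length used: over the union of all annotated exons, which takes in retained introns, MYL12B at 288 CPM per kb stood above MYL6 at 169 in SC 0.77 cP.

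**Figure D1:**
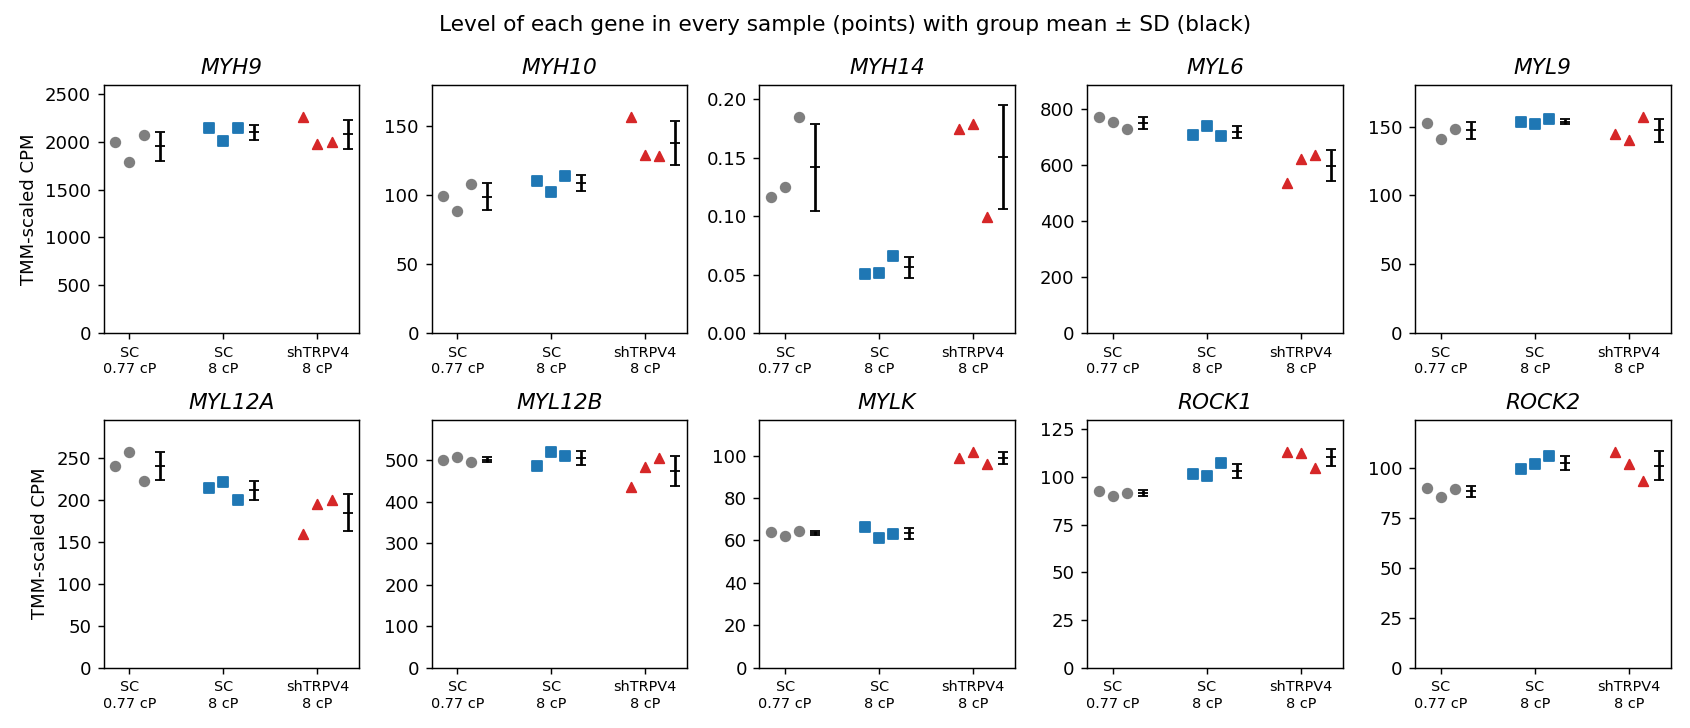
Level of each of the 10 genes in every sample, in CPM scaled by the trimmed mean of M values (y axis, linear from 0), with circles for SC 0.77 cP, squares for SC 8 cP and triangles for shTRPV4 8 cP; black bars give the mean ± SD of 3 samples. MYLK stands at 95.8 to 102 CPM in the knockdown and at 61.0 to 66.3 CPM in both control groups, while MYH9 overlaps in all 3 groups.

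MYH9, the heavy chain of myosin IIA, had a similar level in every group. It was at 2002, 1785 and 2066 CPM in SC 0.77 cP, at 2147, 2004 and 2145 in SC 8 cP, and at 2256, 1975 and 1997 in shTRPV4 8 cP. The 3 groups overlapped. The log2 difference of SC 8 cP over SC 0.77 cP was 0.10 (95% interval −0.028 to 0.24) and of shTRPV4 8 cP over SC 8 cP −0.015 (−0.15 to 0.12), neither past the threshold of an edgeR adjusted p of 0.05.

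MYH10, the heavy chain of myosin IIB, was higher in the knockdown. It stood at 99.3, 88.3 and 108 CPM in SC 0.77 cP, at 109.8, 102 and 114 in SC 8 cP, and at 156, 129 and 128 in shTRPV4 8 cP. All knockdown samples lay above all control samples, with replicate 1 apart from the other two. The rise over SC 8 cP was 0.34 on the log2 scale (SE 0.078, edgeR adjusted p = 0.00601), a 26.9% higher level, and over SC 0.77 cP 0.48 (SE 0.079, edgeR adjusted p = 0.000159). Without shTRPV4 replicate 1 the first of these was 0.24 (edgeR adjusted p = 0.0186). Between the scramble groups MYH10 differed by 0.14 (95% interval −0.029 to 0.31), which did not pass.

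MYH14, the heavy chain of myosin IIC, was near the limit of detection. It had 11, 8 and 19 counts in SC 0.77 cP, 5, 5 and 6 in SC 8 cP, and 16, 14 and 9 in shTRPV4 8 cP. SC 8 cP lay below both other groups in every sample. The difference of shTRPV4 8 cP over SC 8 cP was 1.40 on the log2 scale (SE 0.48, edgeR adjusted p = 0.0497) and that of SC 8 cP over SC 0.77 cP −1.34 (SE 0.48, edgeR adjusted p = 0.0617). The first passed in only 4 of 16 alternative analyses, with adjusted p-values from 0.0411 to 0.152, so these few reads do not give a firm call.

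The composition of the heavy chain pool shifted with these levels. MYH10 made up 2.56% ± 0.076 (SD, n = 3) of heavy chain counts per kilobase of union exon length in SC 0.77 cP, 2.62% ± 0.057 in SC 8 cP and 3.33% ± 0.13 in shTRPV4 8 cP. Per kilobase of the canonical transcript the same shares were 4.65%, 4.76% and 6.01%, and with no length 4.80%, 4.91% and 6.21%. The length thus sets the share itself, while the ratio of MYH10 to MYH9 between groups does not depend on it. That ratio was 1.28-fold higher in shTRPV4 8 cP than in SC 8 cP, 1.31-fold higher than in SC 0.77 cP, and 1.03-fold higher in SC 8 cP than in SC 0.77 cP. Every knockdown sample exceeded every control sample in the MYH10 share, by an exact two-sided permutation test p = 0.10, the smallest that 3 against 3 samples allow, and 0.225 after Benjamini-Hochberg adjustment over 9 share tests. For the 2 scramble groups the same exact permutation test gave p = 0.30 with overlapping samples. MYH9 kept at least 93.5% of the heavy chain counts in every sample whatever length was used, and MYH14 at most 0.0144%.

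**Figure D2:**
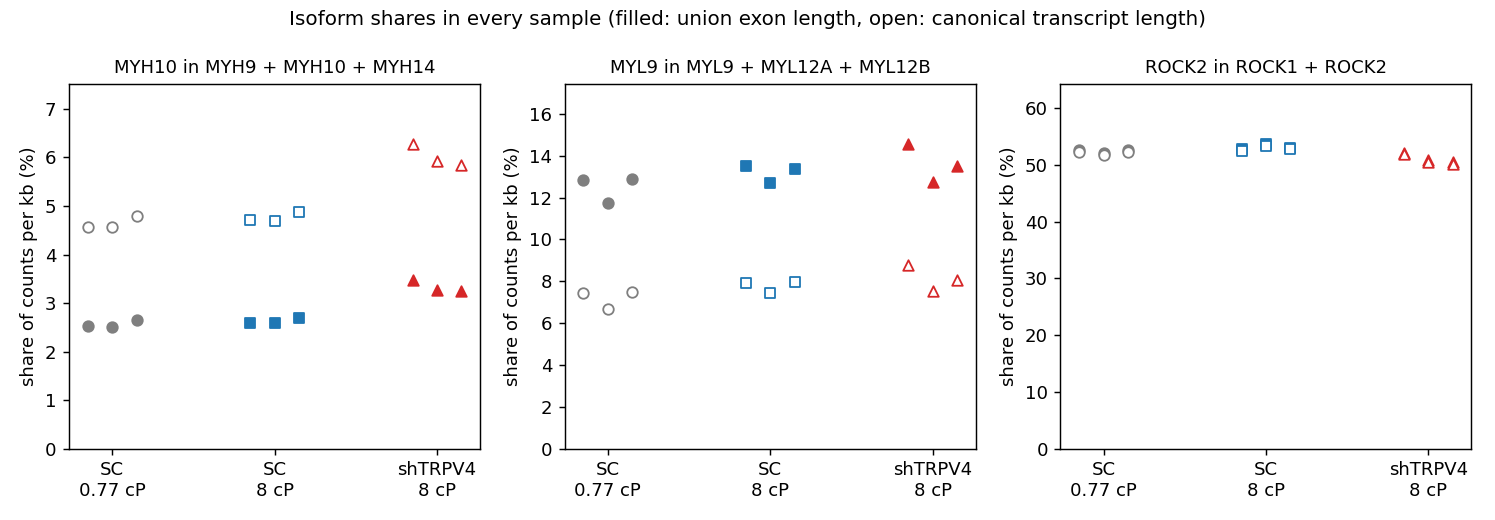
Share in percent of MYH10 among the 3 heavy chains, of MYL9 among the 3 regulatory light chains and of ROCK2 among the 2 ROCK genes in every sample (y axes linear from 0), with filled symbols for union exon length and open symbols for canonical transcript length. In the left panel the shTRPV4 8 cP triangles lie above all control samples under both lengths, at 3.24 to 3.48% and 5.85 to 6.27%.

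Among the light chains, MYL6 fell in the knockdown. MYL6, which codes for the essential light chain, was at 769.9, 752 and 728 CPM in SC 0.77 cP, at 707, 740.4 and 705 in SC 8 cP, and at 535, 622 and 636 in shTRPV4 8 cP. All knockdown samples were below all control samples. The log2 difference from SC 8 cP was −0.26 (SE 0.058, edgeR adjusted p = 0.00461) and from SC 0.77 cP −0.33 (SE 0.058, edgeR adjusted p = 0.00031). Without shTRPV4 replicate 1, the lowest sample, the first was −0.19 (edgeR adjusted p = 0.00778).

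MYL12A, a regulatory light chain, was lower in the knockdown than in SC 0.77 cP. It was at 240.4, 257 and 223 CPM in SC 0.77 cP, at 213, 221 and 199 in SC 8 cP, and at 159, 195 and 199 in shTRPV4 8 cP. Both 8 cP groups lay below SC 0.77 cP in every sample and overlapped each other. The fall between the ends was 0.38 on the log2 scale (SE 0.075, edgeR adjusted p = 0.00077). The differences between neighbouring groups missed the threshold, at −0.18 for SC 8 cP over SC 0.77 cP (edgeR adjusted p = 0.0979) and −0.20 for shTRPV4 8 cP over SC 8 cP (edgeR adjusted p = 0.0796). The first of these passed in 4 of 17 alternatives and the second in 3 of 17.

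MYL9 and MYL12B, the other regulatory light chains, passed in no comparison. MYL9 ranged from 141 to 152 CPM in SC 0.77 cP, from 152 to 155 in SC 8 cP and from 140.3 to 157 in shTRPV4 8 cP. MYL12B ranged from 494 to 507, from 486 to 519 and from 435 to 505 CPM in the same order. Their log2 differences had 95% intervals that stayed within −0.16 to 0.17 for MYL9 and −0.20 to 0.12 for MYL12B over the 3 comparisons. The largest part of the regulatory light chain pool was MYL12B, at 68.7% ± 0.50 (SD, n = 3) in SC 0.77 cP, 70.01% ± 0.84 in SC 8 cP and 70.7% ± 0.16 in shTRPV4 8 cP per kilobase of union exon length. MYL9 made up 12.5% ± 0.65, 13.2% ± 0.42 and 13.6% ± 0.90, with overlapping samples and exact permutation p-values from 0.30 to 0.40 at that length. Per kilobase of the canonical transcript the MYL9 shares were 7.21%, 7.78% and 8.12%, and there every shTRPV4 8 cP sample lay above every SC 0.77 cP sample (exact permutation p = 0.10). At the canonical length MYL12B made up 58.7%, 61.2% and 62.5%, with both 8 cP groups above SC 0.77 cP in every sample (exact permutation p = 0.10 each). At the union length its SC 8 cP and SC 0.77 cP samples overlapped (exact permutation p = 0.20). The ratio of MYL12B to MYL12A was 1.23-fold higher in shTRPV4 8 cP than in SC 0.77 cP and 1.14-fold higher in SC 8 cP than in SC 0.77 cP, both without overlap (exact permutation p = 0.10 each).

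MYLK, the calmodulin-dependent light chain kinase, showed the steadiest difference of the set. Its levels were 63.8, 62.3 and 64.5 CPM in SC 0.77 cP, 66.3, 61.0 and 62.8 in SC 8 cP, and 99.0, 102 and 95.8 in shTRPV4 8 cP. The control groups overlapped and the knockdown samples lay far above both. The log2 difference from SC 8 cP was 0.64 (SE 0.046, edgeR adjusted p = 2.6e-07), a 56.0% higher level, and from SC 0.77 cP 0.64 (SE 0.046, edgeR adjusted p = 6.6e-08). Over 17 alternatives the first ranged from 0.61 to 0.68 and stayed past the threshold in all of them. Between the scramble groups the difference was −0.0042 (95% interval −0.10 to 0.093). The gene has 57 annotated transcripts, which include short forms without the kinase domain, and counts per gene do not say which of them carried the rise. MYLK-AS1, on the other strand, reached 0.836 CPM at most and differed by no more than 0.070 on the log2 scale in any comparison.

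ROCK1 and ROCK2 were slightly higher at 8 cP. ROCK1 was at 92.8, 89.9 and 91.9 CPM in SC 0.77 cP, at 102, 100.8 and 107 in SC 8 cP, and at 113, 113 and 105 in shTRPV4 8 cP. ROCK2 was at 90.0, 85.1 and 89.2 CPM, at 99.2, 102 and 106, and at 108, 102 and 93.3 in the same order. For both kinases every 8 cP sample exceeded every 0.77 cP sample, and the 8 cP groups overlapped. In SC 8 cP over SC 0.77 cP the log2 difference was 0.17 for ROCK1 (SE 0.046, edgeR adjusted p = 0.0154) and 0.21 for ROCK2 (SE 0.053, edgeR adjusted p = 0.0117). In shTRPV4 8 cP over SC 0.77 cP it was 0.27 for ROCK1 (SE 0.046, edgeR adjusted p = 0.000217) and 0.20 for ROCK2 (SE 0.053, edgeR adjusted p = 0.00713). Neither kinase passed between the 8 cP groups, at 0.095 for ROCK1 (95% interval −0.0019 to 0.19) and −0.018 for ROCK2 (−0.13 to 0.094). The scramble difference rests on few samples: without SC 8 cP replicate 3 neither ROCK1 (edgeR adjusted p = 0.0785) nor ROCK2 (0.0554) passed, and without SC 0.77 cP replicate 2 ROCK1 did not (0.0567). ROCK2 made up 52.5% ± 0.36 (SD, n = 3) of ROCK counts per kilobase of union exon length in SC 0.77 cP, 53.2% ± 0.42 in SC 8 cP and 51.2% ± 0.90 in shTRPV4 8 cP. SC 8 cP lay above both other groups in every sample (exact permutation p = 0.10 against each, adjusted 0.225).

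**Figure D3:**
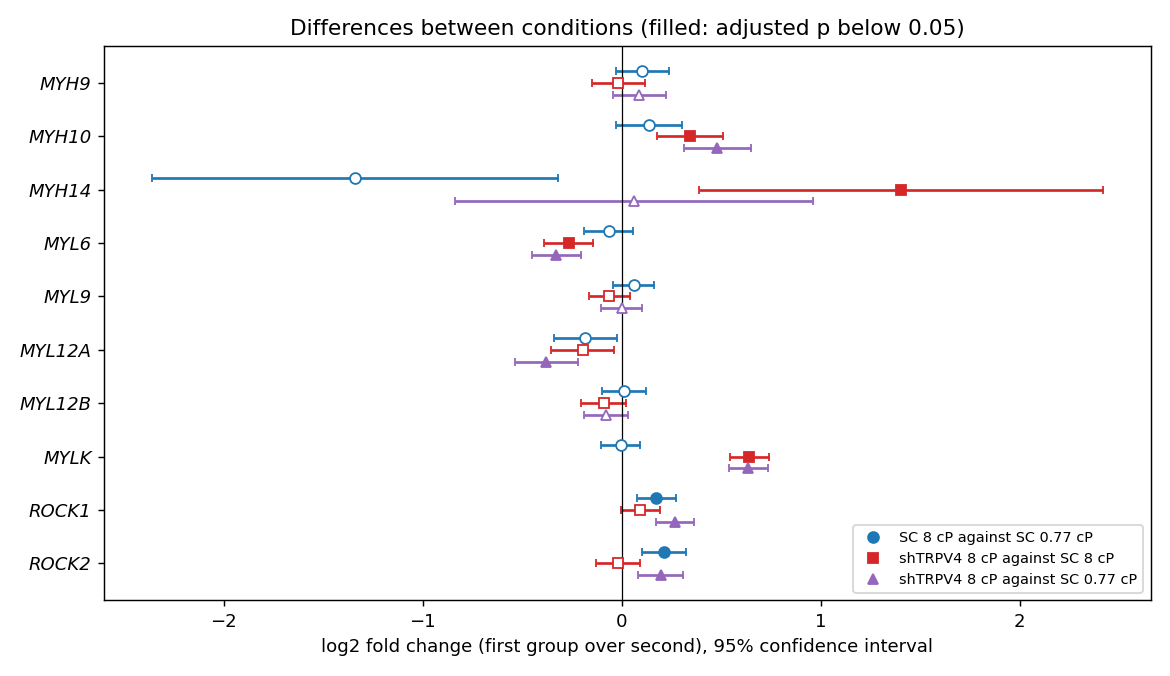
Log2 fold change of each gene (x axis) with its 95% confidence interval in the 3 comparisons, first group over second; filled symbols passed an edgeR adjusted p of 0.05. MYLK and MYH10 lie right of 0 and MYL6 left of 0 in both comparisons with the knockdown, and only ROCK1 and ROCK2 are filled for SC 8 cP against SC 0.77 cP.

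Counted over the set, 2 of 10 genes were called in SC 8 cP against SC 0.77 cP, both higher, where 19.3% of all tested genes were called, 9.57% higher and 9.69% lower. In shTRPV4 8 cP against SC 8 cP, 3 were higher (MYH10, MYH14, MYLK) and 1 was lower (MYL6), with 20% of all genes called, 9.02% higher and 11% lower. In shTRPV4 8 cP against SC 0.77 cP, 4 were higher (MYH10, MYLK, ROCK1, ROCK2) and 2 lower (MYL6, MYL12A), with 42.4% of all genes called, 20.4% higher and 22% lower. The number called over all genes moved when 1 library was left out. In SC 8 cP against SC 0.77 cP it was 3518 genes with all libraries, 1409 without SC 0.77 cP replicate 1, 1927 without SC 0.77 cP replicate 2 and 1418 without SC 8 cP replicate 3, where 2, 1 and 0 of the 10 were called. The number over all genes rose to 4344 without SC 0.77 cP replicate 3 and to 4349 without shTRPV4 8 cP replicate 1. Between the 8 cP groups it was 3649 genes with all libraries, 2361 without SC 8 cP replicate 1 and 2179 without SC 8 cP replicate 2, and 3 of the 10 (MYH10, MYLK, MYL6) were called in both. Without SC 0.77 cP replicate 3 it rose to 3836 genes. The median log2 difference of the 10 genes was 0.037, −0.016 and 0.077 in these 3 comparisons, against −0.0065, 0.00064 and −0.011 over all genes tested.

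Transcript length differed between the genes called higher and those called lower in shTRPV4 8 cP against SC 0.77 cP. The canonical transcripts of MYL6 and MYL12A, lower in that comparison, are 708 and 958 bases long. Those of MYH10, MYLK, ROCK1 and ROCK2, higher in it, run from 7707 to 10113 bases. That of MYH14, higher in shTRPV4 8 cP than in SC 8 cP, has 6914 bases. MYH9 (7451 bases), MYL9 (2786) and MYL12B (1163) passed in no comparison, and MYLK (10113) passed only in those with the knockdown. Whether length caused any of these differences was not tested. Over all tested genes with a mean of at least 10 CPM, the median log2 difference of shTRPV4 8 cP over SC 0.77 cP was −0.089 for 606 genes under 1 kb and 0.048 for 1258 genes over 7 kb. For shTRPV4 8 cP over SC 8 cP the same medians were −0.053 and 0.0058, and for SC 8 cP over SC 0.77 cP −0.044 and 0.055. Replicate 1 of shTRPV4 8 cP, which had the lowest MYL6 and the highest MYH10 of its group, was also the sample with the lowest short genes (−0.10 from its group mean) and the highest long genes (0.055). With a smooth trend on length taken out of each sample, MYLK, MYH10 and MYL6 stayed past the threshold in shTRPV4 8 cP against SC 8 cP at 0.64, 0.34 and −0.23, and MYL12A joined them at −0.17 (edgeR adjusted p = 0.0474). ROCK1 and ROCK2 stayed past it in SC 8 cP against SC 0.77 cP at 0.13 and 0.17. With a trend on GC content taken out instead, ROCK2 stayed at 0.16 (edgeR adjusted p = 0.0498) and ROCK1 did not, at 0.12 (0.0707). Neither refit tests length or GC content as a cause.

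**Figure D4:**
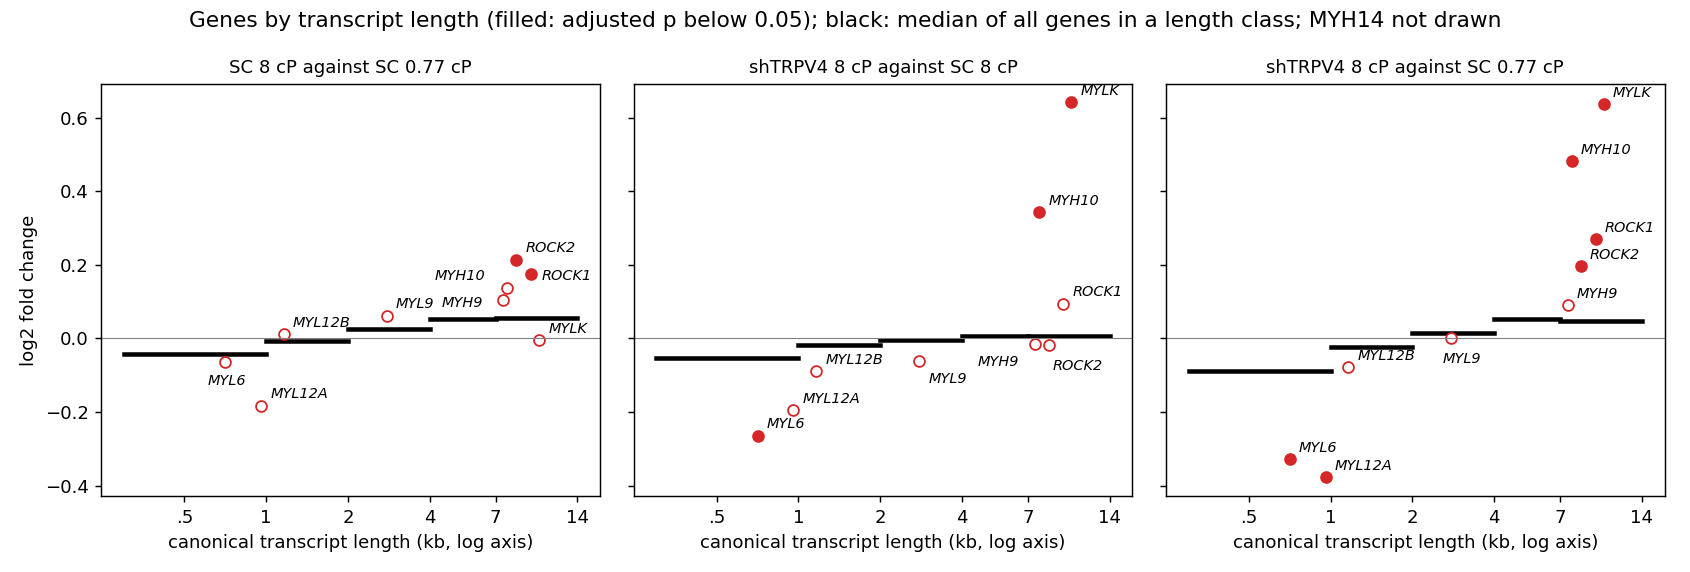
Log2 fold change of 9 genes (y axis; MYH14, at 5 to 19 counts, is not drawn) against the length of the canonical transcript in kb (log x axis) in the 3 comparisons, filled where the edgeR adjusted p was under 0.05. Black lines give the median of all genes of at least 10 CPM in each of 5 length classes; they run from −0.089 to 0.053 in the right panel, where MYL6 and MYL12A lie below −0.3 and MYLK and MYH10 above 0.4.

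Upstream of ROCK, RHOB, RND1 and RND3 were lower at 8 cP and ARHGDIB in the knockdown, while ARHGDIA was slightly higher at 8 cP. RHOA, the main activator of the ROCKs, did not pass in any comparison, with means of 577, 588 and 579 CPM in SC 0.77 cP, SC 8 cP and shTRPV4 8 cP. RHOB, a short-lived relative, fell from 99.2 ± 16 CPM in SC 0.77 cP to 33.3 ± 2.2 in SC 8 cP (log2 difference −1.57, edgeR adjusted p = 1.7e-08) and was lower again in shTRPV4 8 cP at 22.9 ± 1.7 (−0.54 from SC 8 cP, edgeR adjusted p = 0.000942; SD, n = 3). RND1, an atypical small GTPase that opposes RHOA signalling, was at 2.32 ± 0.42 CPM in SC 0.77 cP and 0.508 ± 0.14 in SC 8 cP (−2.18, edgeR adjusted p = 4.9e-05). RND3 was at 313 ± 8.7 CPM in SC 0.77 cP and 217 ± 14 in SC 8 cP (−0.53, edgeR adjusted p = 0.000108). ARHGDIB, a GDP dissociation inhibitor that holds small GTPases in the cytosol, was at 112 ± 5.6 and 116 ± 2.2 CPM in the scramble groups and at 56.5 ± 4.4 in shTRPV4 8 cP (−1.04 from SC 8 cP, edgeR adjusted p = 9.6e-09). ARHGDIA, of the same inhibitor family, went the other way, from 313 ± 10.3 CPM in SC 0.77 cP to 343 ± 8.46 in SC 8 cP (0.14, edgeR adjusted p = 0.0471; SD, n = 3), and was at 343 ± 13.5 CPM in shTRPV4 8 cP (0.13 over SC 0.77 cP, edgeR adjusted p = 0.0257). In all, 1 of 8 tested genes of this list was higher and 3 were lower in SC 8 cP against SC 0.77 cP, 0 and 3 in shTRPV4 8 cP against SC 8 cP (1 higher at an unadjusted edgeR p under 0.05, 0 by DESeq2), and 1 and 5 in shTRPV4 8 cP against SC 0.77 cP.

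Exchange factors, which load RHOA and its relatives with GTP, counted 0 higher and 4 lower of 17 by edgeR in SC 8 cP against SC 0.77 cP (2 higher at an unadjusted p under 0.05 and 2 by DESeq2), with ARHGEF3 at −0.23 (edgeR adjusted p = 0.00918) and PLEKHG5 at −0.34 (0.0147). In shTRPV4 8 cP against SC 8 cP the list split, 2 higher and 2 lower. ARHGEF2, the microtubule-bound activator GEF-H1, fell by 0.21 on the log2 scale (edgeR adjusted p = 0.00229), and TRIO rose by 0.18 (0.0125). In shTRPV4 8 cP against SC 0.77 cP, 2 were higher and 5 lower, again with ARHGEF2 at −0.33 and TRIO at 0.25. The GTPase activating proteins, which switch these GTPases off, had 1 of 15 higher in the scramble comparison, ARHGAP18 at 0.26 (edgeR adjusted p = 0.0167). The next in that list, ARHGAP28, stood at −0.57 and did not pass (0.0775). Against SC 8 cP the knockdown had 2 higher and 2 lower. RACGAP1, a cytokinesis factor, went from 231 ± 6.6 to 123 ± 2.0 CPM (−0.90, edgeR adjusted p = 5.2e-09; SD, n = 3) and ARHGAP42 rose by 0.31 (0.00107). Against SC 0.77 cP it had 2 higher and 3 lower, led by RACGAP1 at −0.82 and ARHGAP18 at 0.53.

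The phosphatase that reverses light chain phosphorylation had 5 tested genes. By edgeR 0 passed in SC 8 cP against SC 0.77 cP (1 at an unadjusted p under 0.05 and 1 by DESeq2), where PPP1R14B, of the family of phosphatase inhibitors, stood at 0.16 (edgeR adjusted p = 0.0887) and the targeting subunit PPP1R12A at 0.084 (0.237), the next smallest. The catalytic subunit PPP1CB fell in the knockdown, from 158 ± 4.9 CPM in SC 8 cP to 133 ± 8.0 (−0.26, edgeR adjusted p = 0.00267; SD, n = 3), while PPP1R12B stood at 0.14 and did not pass (0.274). Against SC 0.77 cP, PPP1CB was at −0.26 (edgeR adjusted p = 0.000807), and PPP1R12A (0.16, 0.014) and PPP1R12B were higher. Other kinases of the light chain and the calmodulin genes had 2 higher and 4 lower of 17 in the scramble comparison, 2 and 5 in shTRPV4 8 cP against SC 8 cP, and 3 and 9 in shTRPV4 8 cP against SC 0.77 cP. CDC42BPG, of the MRCK kinases, was at −0.51 (edgeR adjusted p = 0.00146) and PAK2 at 0.21 (0.00479) in the first. STK17A, of the death-associated kinase family, was at −0.41 (edgeR adjusted p = 0.000183) and CALM3 at −0.23 (0.0019) in the second. In the third, STK17A was at −0.69 and PAK2 at 0.36.

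Downstream of ROCK, the LIM kinase and cofilin branch had 1 higher and 1 lower of 11 genes in SC 8 cP against SC 0.77 cP, LIMK1 at 0.20 (edgeR adjusted p = 0.0365) and the cofilin phosphatase SSH3 at −0.28 (0.00479). In the knockdown TESK2 was lower than in SC 8 cP (−0.45, edgeR adjusted p = 0.018) and in SC 0.77 cP (−0.76, 0.000137). TESK1 was at 0.15 and 0.23 in these 2 comparisons and passed in the second (edgeR adjusted p = 0.0527 and 0.00301). The third comparison counted 2 higher and 1 lower.

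The actin filament partners had 2 higher and 4 lower of 18 in the scramble comparison, 3 and 4 in shTRPV4 8 cP against SC 8 cP, and 4 and 5 in shTRPV4 8 cP against SC 0.77 cP. ANLN, which links myosin II to the contractile ring, rose by 0.25 at 8 cP in scramble cells (edgeR adjusted p = 0.0043), and supervillin (SVIL) was at −0.23 there (0.00302). Caldesmon (CALD1), which binds myosin and actin, rose in the knockdown over SC 8 cP by 0.21 (edgeR adjusted p = 0.00179), and tropomyosin 1 (TPM1), which coats the filament, by 0.21 (0.00269). The knockdown against SC 0.77 cP had SVIL at −0.35 and TPM1 at 0.32. Of the 20 genes listed as chains of muscle myosin II, 9 passed the filter. The list holds MYL6B, at 31.7 to 39.6 CPM, which shares 89 exon bases with MYL6 on the same strand. MYL5 was at −0.41 in the scramble comparison (edgeR adjusted p = 0.0275), where MYH7B stood at −0.91 without passing (0.0542). MYL1 was lower in the knockdown than in SC 8 cP, at 0.0771 against 0.652 CPM, and MYH3 was higher, at 3.86 against 2.54 CPM. The MYL1 difference (−3.06, SE 0.41, edgeR adjusted p = 9.9e-05) rests on few reads. It had at most 82 counts in any sample and 0.0218 to 0.133 CPM in shTRPV4 8 cP. Against SC 0.77 cP, 1 muscle chain was higher and 4 were lower, with MYL1 and MYL5 at the smallest adjusted p. MYH11, the smooth muscle heavy chain nearest to the non-muscle ones, had 8 to 36 counts per sample and passed in no comparison.

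**Figure D5:**
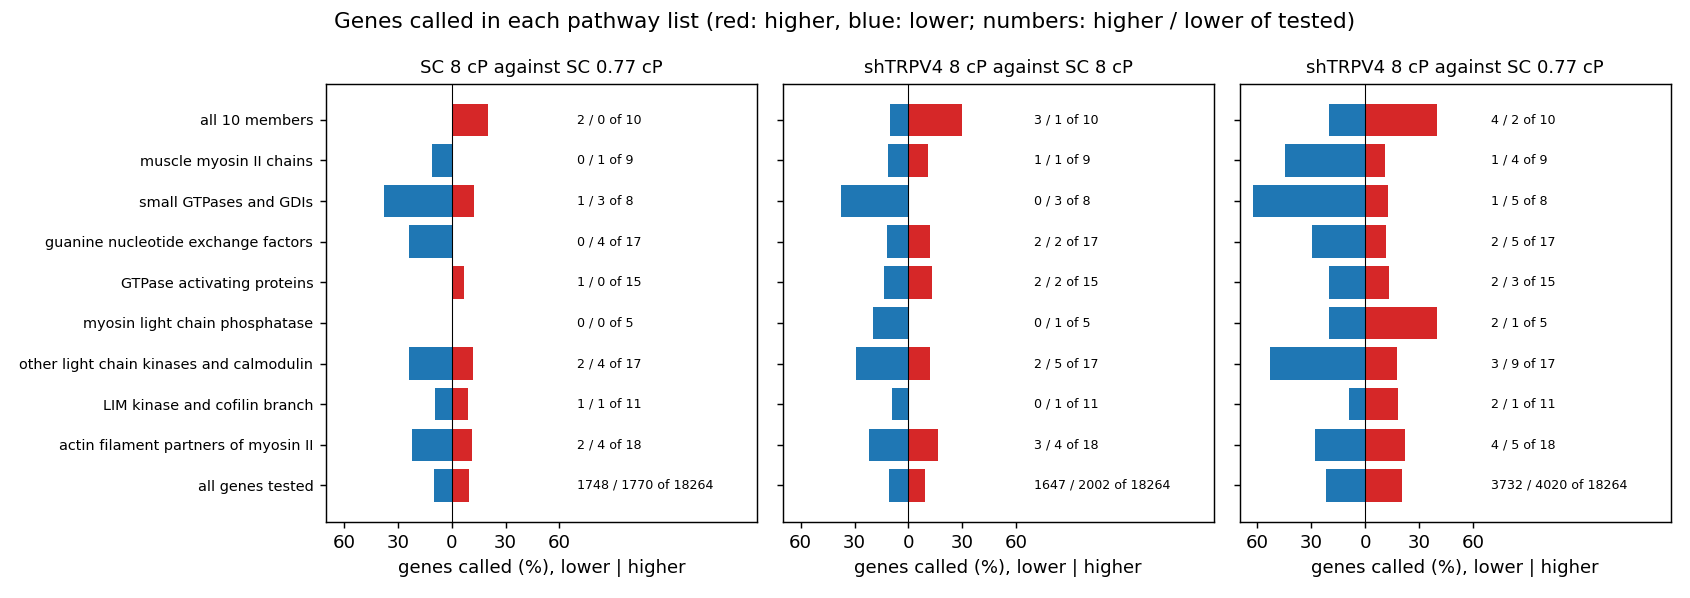
Percent of tested genes called higher (red, right) and lower (blue, left) in each pathway list and over all genes in the 3 comparisons, with the numbers called higher and lower of those tested at the right of each bar. The small GTPase list has 3 of 8 genes lower in both the left and the middle panel, and the bottom bar gives the share over all 18264 genes.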

How the data were processed

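Poly(A) RNA of 9 MDA-MB-231 samples was sequenced from strand-specific libraries. The authors aligned 100-base pairs with HISAT2 (version 2.2.1 in the submitters' processing notes) to GRCh38 (patch 13), totalled exon reads per gene with HTSeq (0.13.5) on Ensembl release 104, and deposited raw counts, 1 table per sample. Strand and multiple-mapping settings are not given in the sources used here. Gene IDs were matched to GENCODE release 44, where 60463 of 60664 had a symbol. Counts were tested with edgeR 4.0.16 (R 4.3.3): filterByExpr, TMM scaling, glmQLFit and glmQLFTest on all 9 samples, Benjamini-Hochberg adjustment over 18264 genes, threshold 0.05. The script was tested on simulated data. Shares were counts per kilobase within a family, compared by exact two-sided permutation tests. Members and gene lists were chosen with earlier results of these data known. From each pathway list, the 2 genes with the smallest adjusted p in each comparison are named. RHOA, ARHGDIA, RND3, MYL6B, MYH11, CD44, CAV1, EPCAM, CDH1, SMTN, ACTA2 and the keratin genes were added after their values were seen. Alternatives were DESeq2 1.42.0, upper quartile scaling, no filter, fewer samples, a replicate block, a stricter threshold and other lengths. The matching coding stretch of 1 further heavy chain gene is not reported here.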

Additional observations from a re-analysis of the deposited data

How the results depend on the processing

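The counts of genes called among the 10 stayed within 1.5 times of the main count in 23 of 24 alternatives that kept all replicates. The exception was a threshold of 0.01 for SC 8 cP against SC 0.77 cP, which left 0 of 10 genes (2 by edgeR at 0.05 and 2 by DESeq2). Leaving out 1 replicate gave 0 to 3 genes there, 3 to 5 in shTRPV4 8 cP against SC 8 cP, and 6 in every run of shTRPV4 8 cP against SC 0.77 cP. The run with 0 was without SC 8 cP replicate 3, and the run with 1 gene (ROCK2) without SC 0.77 cP replicate 2. With the replicate number as a block the counts were 2, 3 and 6, the gene lost being MYH14. Deviations from the group mean correlated at −0.055 to 0.090 between samples with the same number, and at −0.11 to 0.11 with different numbers. Between the scramble groups the same-number correlations were 0.045, 0.032 and 0.090. With 3 samples per group, these values cannot decide whether the numbers pair the samples.

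The difference in MYH10 share between shTRPV4 8 cP and SC 8 cP was 0.711 points with union exon length, 1.29 with no length, 0.954 with the longest transcript and 1.25 with the canonical transcript. Between shTRPV4 8 cP and SC 0.77 cP it was 0.773, 1.41, 1.04 and 1.36 points. The alternative's construction sets this scale. The canonical length and the trends on length and GC content were chosen after seeing the data.

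Signs turned only for genes that passed no threshold in that comparison. MYLK in SC 8 cP against SC 0.77 cP was 0.0054 on the log2 scale with DESeq2 and −0.030 to 0.034 without 1 replicate. MYL12B there was −0.040 with the GC trend removed. MYH9 in shTRPV4 8 cP against SC 8 cP was 5.0e-05 with the GC trend removed and −0.080 to 0.019 without 1 replicate, and ROCK2 there −0.068 to 0.036. In shTRPV4 8 cP against SC 0.77 cP, MYL9 was −0.015 with upper quartile scaling, −0.0024 with the length trend removed and −0.046 to 0.035 without 1 replicate, and MYH14 −0.067 to 0.33. Depth limits MYH14, whose counts of 5 to 19 per sample leave a 95% interval of 0.39 to 2.42 around its log2 difference between the 8 cP groups.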
